A study of Homo sapiens with 7 samples.

Results

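The epithelial-mesenchymal switch genes are 10 genes chosen by name: the cadherins CDH1 and CDH2, vimentin (VIM), the transcription factors ZEB1, ZEB2 and SNAI2, the surface proteins EPCAM and ALCAM, and the epithelial splicing regulators ESRP1 and ESRP2. The deposited table holds 13142 genes, and 9 of the 10 have values in it. ESRP1 was not analysed here. All 9 passed the filter on low values, as did 11154 genes in all. The RNA-seq libraries came from BHT-101, a cell line of human anaplastic thyroid cancer, grown in DMEM with fetal bovine serum, pyruvate and antibiotics. The study set 3 biological replicates of wild-type (WT) cells against 4 clonal lines in which ASH1L, a Trithorax-group enzyme that methylates histones, was knocked out (KO). Both alleles carry a premature stop codon after residue 413 (clone KO1), residue 610 (KO2) or residue 2129 (KO3), and the alleles of KO4 stop after residues 2169 and 2174. Each knockout line is 1 clone with 1 library and no clone with intact ASH1L was analysed, so an effect of the knockout and other differences of a clone from WT cells cannot be told apart.

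In the epithelial-mesenchymal transition, cells that adhere to each other through E-cadherin lose it, gain N-cadherin and vimentin, and become motile. Transcription factors of the ZEB and SNAI families repress E-cadherin and other epithelial genes by binding E-box sequences in their promoters, and the ESRP proteins keep transcripts in their epithelial splice forms. Anaplastic thyroid cancer is known for having lost much of the follicular epithelial program.

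The 4 clones moved these genes in different directions. CDH1, the gene of E-cadherin, fell in KO1, KO3 and KO4 and rose in KO2. SNAI2, a repressor of E-cadherin, rose in every clone, including KO2. KO2 also had lower VIM, ZEB1 and CDH2 and higher EPCAM, while KO1 and KO4 had lower EPCAM and ESRP2. With the 4 clones taken as replicates of 1 knockout group, 0 of the 9 genes passed (limma, Benjamini-Hochberg adjusted p under 0.05), where 0.412% of all tested genes did.

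The RefSeq table (GRCh38.p14) lists promoters for 5 of these genes, with 7 starts for ZEB1 and 2 for CDH2. For each gene 1 listed start was searched, over the 250 bases before it. The search was for CAGGTG and its reverse complement CACCTG, the E-box form that ZEB and SNAI factors are known to bind. The start searched lay 4464 bases from the GENCODE start in ZEB2, 316 in CDH2, 78 in ZEB1, 18 in VIM and 0 in ALCAM. This E-box was found for ZEB1 and ALCAM, 2 of the 5 genes. It was also found in 17.5% of all 35116 promoters in the table, where a gene can have several starts. CDH2, VIM and ZEB2 held no match in this window before the start searched, which does not cover the other listed start of CDH2. The promoters of CDH1, EPCAM, ESRP1, ESRP2 and SNAI2 were not searched here. The last 120 bases before the start are printed for ZEB1 and VIM, 2 genes of chromosome 10 that fell together in KO2, and for ALCAM, which rose there, with the E-box in capitals. They lie at chr10:31318297-31318416 (plus strand), chr10:17228121-17228240 (plus strand) and chr3:105366789-105366908 (plus strand). A match is a description of the letters and not a measured binding site.
ZEB1: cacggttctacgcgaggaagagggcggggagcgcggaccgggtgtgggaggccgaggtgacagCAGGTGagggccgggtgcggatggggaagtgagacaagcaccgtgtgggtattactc
VIM: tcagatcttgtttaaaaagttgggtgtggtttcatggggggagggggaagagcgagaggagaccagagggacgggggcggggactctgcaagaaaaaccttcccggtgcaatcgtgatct
ALCAM: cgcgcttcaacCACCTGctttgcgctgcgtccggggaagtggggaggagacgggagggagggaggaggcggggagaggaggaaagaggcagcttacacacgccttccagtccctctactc

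Values are the deposited log2 RPKM (reads scaled to exon kilobases and to library size). Comparisons of levels between genes depend on the exon length used, such as 24.97 kb for ZEB2 and 8.65 kb for ZEB1. In the WT samples VIM was highest of the 9 genes, at a mean log2 RPKM of 8.94 ± 0.09 (SD, n = 3), followed by CDH2 at 6.10 ± 0.05 and ALCAM at 4.79 ± 0.03. ESRP2 at 3.01 ± 0.07 and EPCAM at 2.95 ± 0.09 did not differ beyond the spread of the WT samples. ZEB1 was at 2.32 ± 0.07, SNAI2 at 1.41 ± 0.34, CDH1 at 0.67 ± 0.17 and ZEB2 at 0.11 ± 0.10 (log2 RPKM, SD, n = 3). The WT cells carried N-cadherin and vimentin transcripts far above that of E-cadherin, beside detectable EPCAM and ESRP2. Whole read counts could be recovered for 13139 of the 13142 genes, from effective libraries of 44.0 to 70.4 M reads. The WT samples correlated at Pearson 0.988 to 0.995 with each other across genes, and KO1 stood farthest from them, at 0.821 to 0.830, against 0.913 to 0.940 for the other clones. ASH1L itself was at log2 RPKM 3.34, 3.30 and 3.22 in the WT samples and at 2.69, 2.54, 2.42 and 3.74 in KO1 to KO4, which does not test the labels, since a stop codon need not lower a transcript.

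**Figure D1:**
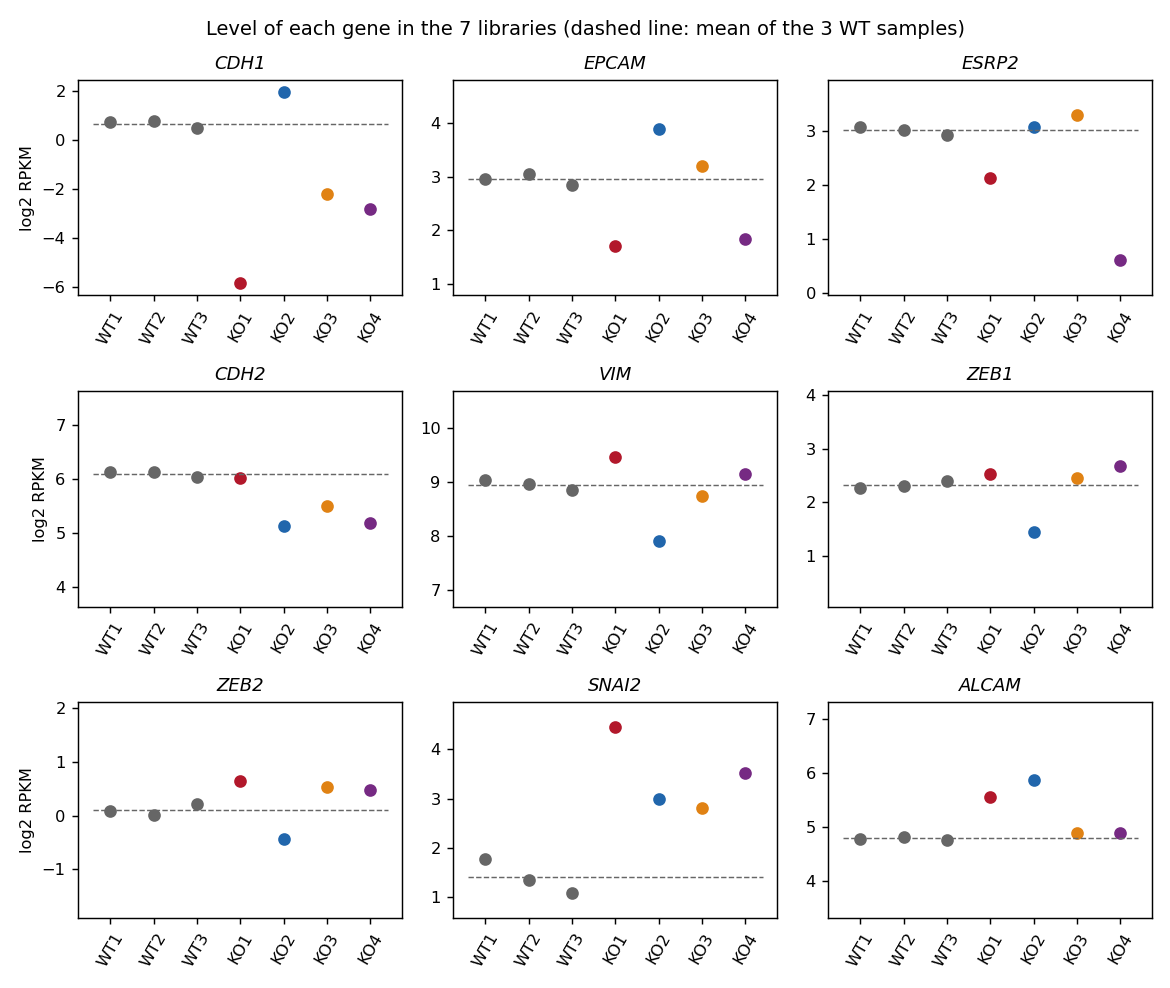
Level of each of the 9 genes in the 7 libraries, in log2 RPKM on the vertical axis, with 1 point for each library and a dashed line at the WT mean. CDH1 spans the widest range, from -5.86 in KO1 to 1.96 in KO2, and SNAI2 lies above all 3 WT samples in all 4 clones.

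CDH1 (ENSG00000039068, chromosome 16, 68737225 to 68835548, plus strand, hg38), the gene of the adherens junction protein E-cadherin, had WT levels of log2 RPKM 0.75, 0.78 and 0.47. The clones KO1 to KO4 had levels of -5.86, 1.96, -2.20 and -2.83. KO2 lay above all WT samples and the other 3 clones below them, with KO1 far under the rest. In reads, 584, 667 and 512 in WT compare with 5, 1524, 59 and 61 in KO1 to KO4. Per effective library this was 1.04% of the WT mean in KO1 (95% exact Poisson interval 0.337% to 2.42%, counting error only), 245% in KO2 (233% to 258%), 13.6% in KO3 (10.4% to 17.6%) and 8.81% in KO4 (6.74% to 11.3%). The intervals of KO3 and KO4 overlap, and those of the other clones are apart from them. In bulk RNA, fewer cells with a transcript and less transcript in each cell cannot be told apart.

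All 4 single-clone differences of CDH1 passed. The log2 difference from WT was -6.53 in KO1 (adjusted p = 6.45e-06, limma), 1.30 in KO2 (2.46-fold, adjusted p = 0.0121), -2.87 in KO3 (adjusted p = 0.00067) and -3.49 in KO4 (adjusted p = 0.000349). Such single-clone tests take their spread from the 3 WT samples with 2 residual degrees of freedom, on the assumption that a clone varies like them. As a group the clones were at -2.23 ± 3.22 (SD, n = 4) and the WT samples at 0.67 ± 0.17 (SD, n = 3). This log2 difference of -2.90 ± 1.60 (SE) missed the threshold (adjusted p = 0.416, limma), and it was -1.69 without KO1, -4.30 without KO2 and -1.81 under quantile normalization. Only 0.8% of tested genes spanned more than the 7.82 log2 units of CDH1 over the 7 libraries. The median log2 difference of the 83 tested genes within 5 Mb was -0.01, 0.15, 0.19 and 0.04 in KO1 to KO4, small beside those of CDH1. The rise in KO2 lost its call without WT2 (1.35, adjusted p = 0.0643), and under quantile normalization the log2 difference of KO1 shrank to -2.69, still passing.

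EPCAM (ENSG00000119888, chromosome 2, 47345158 to 47387601, plus strand) encodes an epithelial surface protein of cell adhesion. It was at log2 RPKM 2.95, 3.04 and 2.85 in the WT samples, and at 1.71, 3.88, 3.19 and 1.85 in KO1 to KO4. KO2 and KO3 lay above the WT range and KO1 and KO4 below it, these 2 closer to each other than the highest and lowest WT samples. EPCAM fell in KO1 (log2 difference -1.24, adjusted p = 0.000413) and KO4 (-1.09, adjusted p = 0.00168), rose 1.90-fold in KO2 (0.93, adjusted p = 0.00292, limma), and did not pass in KO3 (0.24, adjusted p = 0.159). Its neighbours within 5 Mb had median log2 differences of -0.31, -0.33, 0.13 and -0.26 in KO1 to KO4. With these subtracted the same 3 clones passed, at -0.93, 1.25 and -0.84 for KO1, KO2 and KO4. The group difference was -0.29 ± 0.52 (SE, adjusted p = 0.814), and it was 0.03 without KO1, -0.70 without KO2 and -0.02 without KO4.

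ESRP2 (ENSG00000103067, chromosome 16, 68229111 to 68238102, minus strand), which directs epithelial splice choices, had WT levels of log2 RPKM 3.08, 3.02 and 2.93. Its levels in KO1 to KO4 were 2.12, 3.07, 3.29 and 0.61. KO2 lay within the WT range, KO3 just above it, KO1 below and KO4 far below. It fell in KO4 (log2 difference -2.41, 5.30 times lower, adjusted p = 9.34e-05, limma) and in KO1 (-0.89, adjusted p = 0.00152). KO2 (0.05, adjusted p = 0.743) and KO3 (0.28, adjusted p = 0.105) did not pass, and the value of KO2 became -0.11 once the neighbours' median was subtracted. ESRP2 and CDH1 lie close together on chromosome 16, yet their lowest clones differed: KO4 for ESRP2 and KO1 for CDH1. The group difference was -0.74 ± 0.60 (SE, adjusted p = 0.570), and it was -0.19 without KO4.

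CDH2 (ENSG00000170558, chromosome 18, 27950966 to 28177446, minus strand), the gene of N-cadherin, is the cadherin gained in mesenchymal cells. It was at log2 RPKM 6.14, 6.13 and 6.05 in WT and at 6.03, 5.14, 5.51 and 5.19 in KO1 to KO4. All 4 clones lay below all WT samples, though KO1 only just, and KO2 and KO4 were closer to each other than the highest and lowest WT samples. CDH2 fell in KO2 (log2 difference -0.96, adjusted p = 0.00117), KO3 (-0.60, adjusted p = 0.00526) and KO4 (-0.91, adjusted p = 0.00127, limma). KO1 did not pass (-0.07, adjusted p = 0.569), and with the median of each library set to 0 its value was 0.01. The neighbours within 5 Mb had median log2 differences of 0.11, -0.15, -0.33 and -0.36, and with them subtracted KO3 no longer passed (-0.26, adjusted p = 0.104). Their part in the fall of CDH2 was not tested. The group was at 5.47 ± 0.41 (SD, n = 4) and WT at 6.10 ± 0.05 (SD, n = 3), and this difference of -0.64 ± 0.22 (SE) missed the threshold (adjusted p = 0.224).

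VIM (ENSG00000026025, chromosome 10, 17228259 to 17237593, plus strand) encodes the intermediate filament of mesenchymal cells. Its levels were log2 RPKM 9.03, 8.96 and 8.85 in WT, and 9.46, 7.91, 8.73 and 9.15 in KO1 to KO4. KO1 and KO4 lay above the WT range and KO2 and KO3 below it, with KO3 and KO4 nearer to a WT sample than the WT extremes were to each other. VIM fell in KO2 (log2 difference -1.03, adjusted p = 0.00167) and rose in KO1 (0.52, adjusted p = 0.0112, limma), while KO3 (-0.21, adjusted p = 0.184) and KO4 (0.20, adjusted p = 0.225) did not pass. Its neighbours had medians of 0.35 in KO1 and -0.50 in KO2, in the direction of VIM itself. With them subtracted KO2 still passed (-0.55, adjusted p = 0.0105), KO1 did not (0.15, adjusted p = 0.262) and KO3 did (-0.40, adjusted p = 0.0295). KO1 also lost its call without WT2 (0.53, adjusted p = 0.0609). VIM was the highest of the 9 genes per kilobase in every library, KO2 with its 78434 VIM reads included. The group difference was -0.13 ± 0.34 (SE, adjusted p = 0.877), and it turned to 0.17 without KO2.

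The difference between the cadherins, CDH2 minus CDH1, was 5.39, 5.35 and 5.57 log2 units in the WT samples, or 41.9, 40.8 and 47.7 times as much CDH2 as CDH1 per kilobase. It widened to 11.89 log2 units in KO1, 7.71 in KO3 and 8.02 in KO4 and narrowed to 3.18 in KO2. As a ratio per kilobase this is about 3800 in KO1, which rests on the 5 CDH1 reads, 209 in KO3, 259 in KO4 and 9.05 in KO2. KO2 was thus the clone nearest to equal cadherin levels, with N-cadherin still in excess. In KO3 and KO4 the gap widened although CDH2 itself fell, since CDH1 fell more. This difference was not tested on its own.

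**Figure D2:**
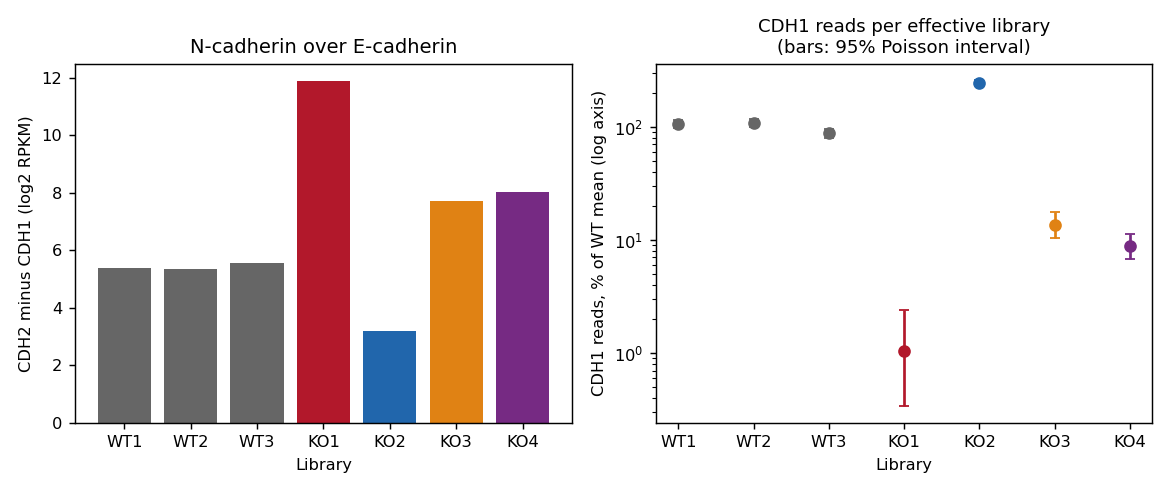
Left, CDH2 minus CDH1 in log2 RPKM for each library, as bars from 0. Right, CDH1 reads per effective library as a percentage of the WT mean on a log axis, with 95% Poisson intervals. KO2 is at 245% with the smallest cadherin difference, 3.18, and KO1 at 1.04% with the largest, 11.89.

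ZEB1 (ENSG00000148516, chromosome 10, 31318495 to 31529814, plus strand), a zinc finger repressor of E-cadherin, was at log2 RPKM 2.27, 2.30 and 2.40 in WT. The levels in KO1 to KO4 were 2.53, 1.46, 2.45 and 2.68. KO2 lay well below the WT range and the other 3 clones a little above it, in steps of about the WT spread. ZEB1 fell in KO2 (log2 difference -0.86, adjusted p = 0.00366, limma). No other clone passed, at 0.21 in KO1 (adjusted p = 0.20), 0.13 in KO3 (adjusted p = 0.419) and 0.36 in KO4 (adjusted p = 0.0710). KO4 passed under quantile normalization (0.41, adjusted p = 0.0450), without WT3 (0.39, adjusted p = 0.0347) and with limma voom on the recovered reads (0.36, adjusted p = 0.0426). The neighbours of ZEB1 had medians of 0.17, -0.43, 0.06 and -0.05 in KO1 to KO4, and with them subtracted KO2 fell just short of passing (-0.42, adjusted p = 0.0508). Their part in the result was not tested. The group difference was -0.04 ± 0.29 (SE, adjusted p = 0.962), and it was 0.23 without KO2 and 0.02 with the neighbours subtracted.

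ZEB2 (ENSG00000169554, chromosome 2, 144364364 to 144524583, minus strand), the paralog of ZEB1, was lower per kilobase. Its log2 RPKM was 0.09, 0.01 and 0.21 in WT and 0.64, -0.43, 0.53 and 0.47 in KO1 to KO4. In WT it had 1502, 1582 and 1729 reads, against 2352, 2676 and 2716 for ZEB1, whose exon length is shorter. As for ZEB1, KO2 lay below the WT range and the other clones above it, these 3 within a WT spread of each other. No clone passed, at log2 differences of 0.54 (adjusted p = 0.0504), -0.53 (0.0614), 0.42 (0.113) and 0.37 (0.179, limma) in KO1 to KO4. The value of KO1 sat at the threshold: it passed with no filter on low values (adjusted p = 0.0457), with voom (0.0117), with no variance trend (0.0207), with each library's median set to 0 (0.61, 0.0326), under quantile normalization (0.83, 0.0309), without WT3 (0.0295) and without KO2 (0.0450). KO2 passed with voom (0.0213) and with no variance trend (0.0281), and KO3 with voom (0.0411). The log2 level of ZEB1 minus that of ZEB2 was 2.18, 2.29 and 2.18 in WT. It was 1.88, 1.89, 1.92 and 2.2 in KO1 to KO4, so KO4 lay within the WT range and the other clones below it. This difference was not tested on its own for the pair. The group difference was 0.20 ± 0.31 (SE, adjusted p = 0.789), and it was 0.08 without KO1, 0.44 without KO2 and 0.12 without KO3.

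SNAI2 (ENSG00000019549, chromosome 8, 48917604 to 48921740, minus strand), also called Slug, is a zinc finger repressor of the SNAI family. It was at log2 RPKM 1.77, 1.36 and 1.09 in WT and at 4.46, 3.00, 2.82 and 3.52 in KO1 to KO4, that is 423, 357 and 280 reads compared with 2369, 1115, 686 and 1784. All 4 clones lay above all WT samples, with KO1 highest. KO2 and KO3, and KO4 and KO2, were each closer together than the highest and lowest WT samples. SNAI2 rose 8.27-fold in KO1 (log2 difference 3.05, adjusted p = 0.000173), 3.02-fold in KO2 (1.59, adjusted p = 0.00517), 2.67-fold in KO3 (1.41, adjusted p = 0.00729) and 4.33-fold in KO4 (2.12, adjusted p = 0.00205, limma). It passed in each clone under every alternative that gave a value, position centring included. Of all tested genes 1.13% were called higher in each of the 4 clones. As a group the clones were at 3.45 ± 0.73 (SD, n = 4) and WT at 1.41 ± 0.34 (SD, n = 3). The group difference of 2.04 ± 0.39 log2 units (SE), or 4.12-fold, had an unadjusted p of 0.000924 and missed the threshold (adjusted p = 0.0827, limma). Over the alternatives the adjusted p ran from 0.0517 to 0.423 and the log2 difference from 1.71 to 2.25. SNAI2 rose in KO2 as well, the clone in which CDH1 was raised and ZEB1 lowered.

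ALCAM (ENSG00000170017, chromosome 3, 105366909 to 105576900, plus strand), an adhesion molecule of the immunoglobulin family, was at log2 RPKM 4.78, 4.82 and 4.76 in WT and at 5.56, 5.87, 4.88 and 4.88 in KO1 to KO4. All clones lay above all WT samples, KO3 and KO4 only slightly. ALCAM rose in KO1 (1.71-fold, log2 difference 0.78, adjusted p = 0.000983) and KO2 (2.13-fold, 1.09, adjusted p = 0.000777, limma), and did not pass in KO3 (0.09, adjusted p = 0.475) or KO4 (0.09, adjusted p = 0.487). With the neighbours' medians subtracted KO3 passed (0.33, adjusted p = 0.0330) and KO4 was at -0.02. The group difference was 0.51 ± 0.26 (SE, adjusted p = 0.377), and it was 0.32 without KO2.

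Set side by side, KO2 had the most of these genes called, 7 of 9, with CDH1, EPCAM, SNAI2 and ALCAM higher and CDH2, VIM and ZEB1 lower, where 33.5% of all tested genes were called in KO2 (15.5% higher, 18.0% lower). KO1 had 6 of 9 called against a background of 44.1% (19.2% higher, 24.9% lower), with SNAI2, ALCAM and VIM higher and CDH1, EPCAM and ESRP2 lower. KO4 had 5 of 9 against 24.8% (10.4% higher, 14.4% lower), with SNAI2 higher and CDH1, EPCAM, ESRP2 and CDH2 lower. KO3 had 3 of 9 against 34.1% (14.2% higher, 19.9% lower), with SNAI2 higher and CDH1 and CDH2 lower. The epithelial genes CDH1 and EPCAM and the mesenchymal gene VIM each rose in at least 1 clone and fell in another, 3 of the 9, as did 12.8% of all tested genes. Those with all 4 clones outside the WT range on the same side were SNAI2, ALCAM and CDH2, 3 of 9, where 19.0% of all tested genes did so (8.88% above, 10.1% below). These comparisons share their 3 WT samples, and differences between single clones were not tested. The 9 genes were chosen with earlier results of these data known. An excess over the shares of all genes is therefore not read as a property of them.

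**Figure D3:**
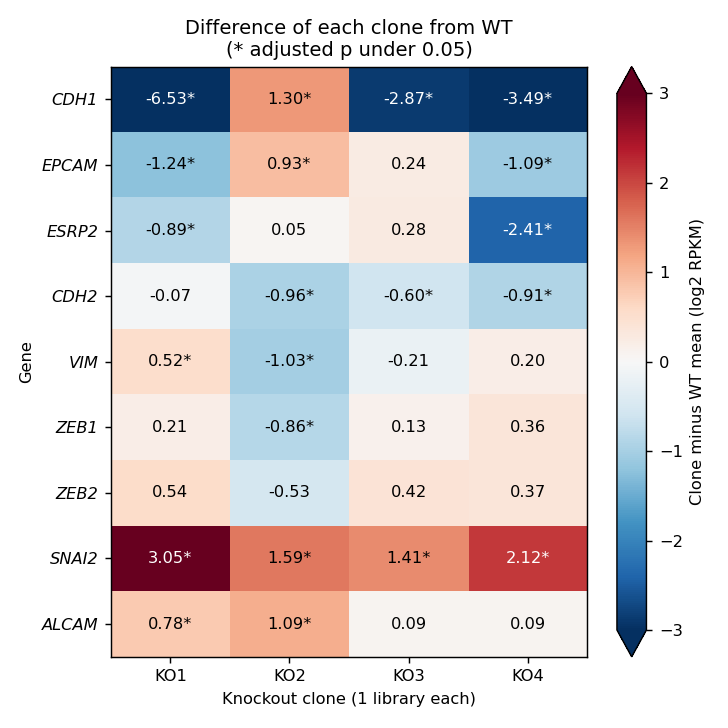
Log2 difference of each clone from the WT mean for the 9 genes in rows and the 4 clones in columns, with red above and blue below WT, the colour scale ending at 3 log2 units on either side and an asterisk where adjusted p was under 0.05. Only the SNAI2 row is red with an asterisk in all 4 clones, and the CDH1 row turns from -6.53 in KO1 to 1.30 in KO2.

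All but ZEB2, which had too few tested neighbours within 5 Mb, were also compared after the median of those neighbours was subtracted. The CDH1, ESRP2, EPCAM and SNAI2 calls stood in each clone that had them. The VIM call in KO1, the ZEB1 call in KO2 and the CDH2 call in KO3 ended, and VIM and ALCAM gained a call in KO3. VIM and ZEB1 both lie on chromosome 10, where their neighbours were lower in KO2 by medians of 0.50 and 0.43 log2 units, given as values with no test.

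**Figure D4:**
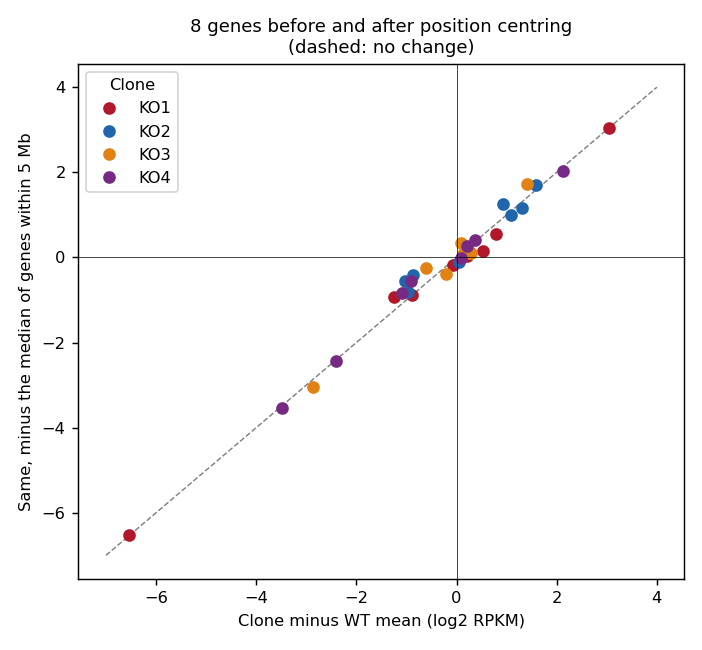
Log2 difference of each clone from the WT mean on the horizontal axis against the same value after the median difference of tested genes within 5 Mb was subtracted, for 8 genes and 4 clones, with a dashed line where the 2 are equal. The large CDH1 differences stay on the line, at -6.53 and -6.52 in KO1, and the VIM value of KO2 moves from -1.03 to -0.55.

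The clones were also divided by the place of the stop codon, late-stop KO3 and KO4 against early-stop KO1 and KO2. None of the 9 genes passed, and 0.0% of all tested genes did, with 436 genes at an unadjusted p under 0.05 (limma) and 0 calls with voom. ALCAM had the smallest p of the 9, with a mean log2 RPKM of 4.88 in the late-stop and 5.72 in the early-stop clones, a difference of -0.84 ± 0.15 (SE, unadjusted p = 0.000927, adjusted p = 0.990). CDH1 averaged -2.51 in the late-stop and -1.95 in the early-stop clones, which hides the early-stop pair of -5.86 and 1.96. Without KO1 CDH1 was at -4.48 (adjusted p = 0.0101), ZEB1 at 1.10 (adjusted p = 0.0406) and ALCAM at -1.0 (adjusted p = 0.0244), and without KO2 CDH1 was at 3.35 (adjusted p = 0.0624). The early-stop arm is then 1 library, assumed to vary like the other groups, so these p-values compare that library and not early-stop clones. The sign of the CDH1 difference followed which early-stop clone was left in.

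The related genes came from lists written for this work, and their counts stand beside the 44.1%, 33.5%, 34.1% and 24.8% of all tested genes called in KO1, KO2, KO3 and KO4. Some shares lie below these, such as 3 of 10 splicing factors in KO1 and 4 of 16 TGF-beta genes in KO3, and nothing particular to those lists is read from them. The filter admits a gene through the 3 WT samples alone, but drops one low in WT that rose in fewer than 3 clones. All list counts and medians, and the shares of all tested genes, can therefore miss rises. Of 14 EMT transcription factors 9 had values and 7 were tested. In single clones 3 rose and 2 fell in KO1, 1 and 3 in KO2, 3 and 1 in KO3, and 2 and 2 in KO4. TWIST1, a basic helix-loop-helix factor of the transition, was at log2 RPKM 0.22, 0.30 and 0.00 in WT, rose to 1.75 in KO1, 1.37 in KO3 and 1.59 in KO4, and fell to -0.77 in KO2 (adjusted p = 0.0109, limma). KO2 was thus its low clone, as it was the low clone of ZEB1 and ZEB2. SNAI1, the paralog of SNAI2, went the other way from it, falling from 2.28, 2.12 and 2.26 in WT to -1.55 in KO1 (adjusted p = 4.83e-06) and 1.34 in KO4 (adjusted p = 0.00651), with 2.09 in KO2 and 1.94 in KO3. Among 16 epithelial transcription factors 6 were tested, and 0 rose and 4 fell in KO1 and in KO4, with 1 up and 2 down in KO2 and 0 up and 2 down in KO3. ELF3, an epithelial ETS factor, was at log2 RPKM 4.32, 4.19 and 4.48 in WT and fell to 0.78 in KO1, 3.05 in KO3 and 2.99 in KO4, with 4.74 in KO2.

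Of 30 other epithelial surface and junction genes (claudins, tight junction proteins, surface proteases) 24 had values and 18 were tested. Among these, which can miss rises from low WT levels, 2 rose and 12 fell in KO1, at a median log2 difference of -1.60. KO4 had 1 up and 11 down at a median of -0.86, KO3 1 up and 5 down at -0.16, and KO2 9 up and 2 down at 0.51, where the medians of all tested genes lay between -0.02 and 0. ST14, the membrane protease matriptase, was at log2 RPKM 0.42, 0.70 and 0.87 in WT, fell to -0.80 in KO1 and -0.93 in KO4 and rose to 1.63 in KO2. By these medians the clones were ordered KO2, KO3, KO4 and KO1, as they were by CDH1 and by EPCAM. ESRP2 gave another order, KO3, KO2, KO1 and KO4, and ST14 was lowest in KO4. The order was not tested, and the CDH1 intervals of KO3 and KO4 overlap. Of 29 mesenchymal filament and matrix genes 19 were tested, with 10 up and 7 down in KO1 (median 0.52), 6 and 10 in KO2 (-0.53), 5 and 11 in KO3 (-0.57) and 10 and 3 in KO4 (0.54). FBN1, a microfibril gene, was the list gene that passed in the group comparison (log2 difference 1.8 ± 0.25 SE, adjusted p = 0.0420, limma). Its call ended when any 1 library other than KO2 was left out, with position centring, with the stricter filter and with the replicate block, at adjusted p from 0.0553 to 0.281, and its difference was 2.6 under quantile normalization. COL5A1 and TNC, genes of matrix proteins, rose in each clone, and MSN, a linker of membrane and actin, fell in each. Of all tested genes 1.13% were called higher in each of the 4 clones and 2.3% lower in each. FN1, the fibronectin gene, was at log2 RPKM 7.04, 7.05 and 7.22 in WT and fell to 5.07, 5.51 and 5.74 in KO1, KO2 and KO3, with 7.36 in KO4.

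**Figure D5:**
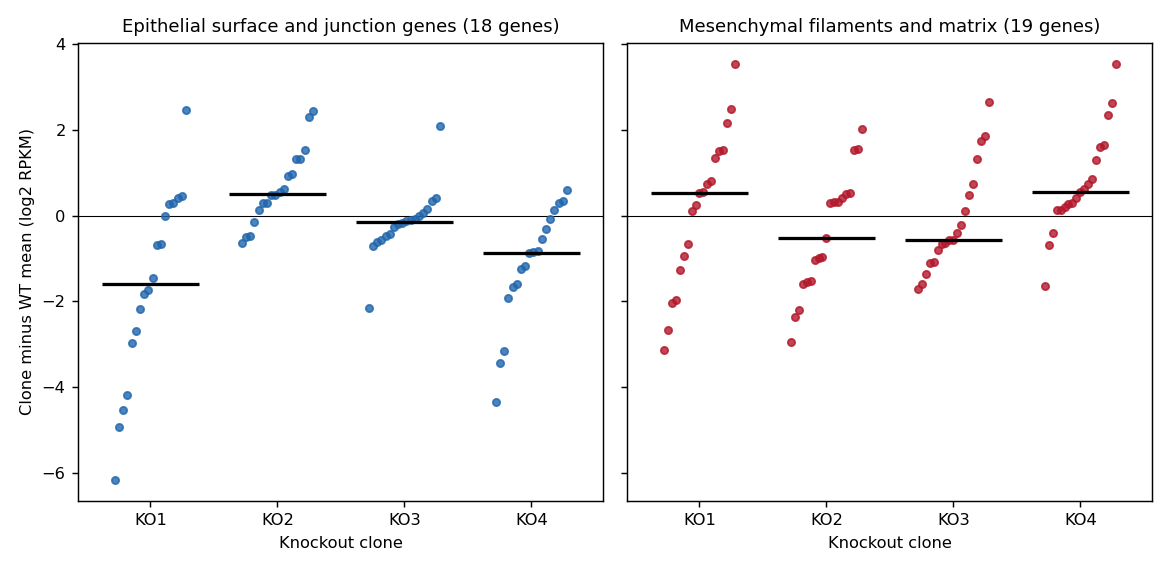
Log2 difference of each clone from the WT mean for the 18 tested epithelial surface and junction genes (left) and the 19 tested mesenchymal genes (right), with 1 point for each gene, sorted within a clone, and a bar at the median. The epithelial median is -1.60 in KO1 and 0.51 in KO2, and the mesenchymal median is 0.52 in KO1 and -0.53 in KO2.

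Among 14 cadherins, CDH1 and CDH2 included, 6 were tested, with 0 up and 3 down in KO1, 2 and 2 in KO2, 2 and 4 in KO3 and 1 and 5 in KO4. CDH11, a cadherin of mesenchymal cells, was at log2 RPKM 2.33, 2.30 and 2.11 in WT, fell to -3.18 in KO1 and 0.82 in KO3 and rose to 4.26 in KO4, with 2.54 in KO2. Of 11 tested catenins and junction partners 2 rose and 4 fell in KO1, 2 and 2 in KO2, 0 and 7 in KO3 and 1 and 2 in KO4. CTNND1, p120-catenin, which holds cadherins at the membrane, fell in KO1, KO3 and KO4, the clones in which CDH1 fell. The other named partners differed from it. In these clones CTNNB1 did not pass, and CTNNA1 passed only in KO3 (log2 difference -0.62). JUP fell in KO1 and KO3 but not in KO4, and AFDN rose in KO1 (0.33). Of 10 tested splicing factors 0 rose and 3 fell in KO1, 1 and 1 in KO2, 0 and 3 in KO3 and 0 and 2 in KO4. RBM47, an RNA-binding protein of epithelial cells, was at 3.75, 3.69 and 3.75 in WT, fell to 0.33 in KO1, 2.75 in KO3 and 2.39 in KO4, and rose to 4.41 in KO2 (adjusted p = 0.00510, limma). Its clones were ordered KO2, KO3, KO4 and KO1 as for CDH1, though differences between clones were not tested. Of 12 tested adhesion molecules related to ALCAM 5 rose and 4 fell in KO1, 3 and 5 in KO2, 1 and 7 in KO3 and 4 and 4 in KO4, and the tetraspanin CD9 fell in each clone. Of 16 tested genes of TGF-beta signalling, an inducer of the transition, 5 rose and 5 fell in KO1, 3 and 3 in KO2, 1 and 3 in KO3 and 3 and 2 in KO4. These counts leave out LTBP2, INHBA and TGFB3, which did not pass the filter. LTBP2 was at log2 RPKM -2.66, -2.33 and -2.11 in WT and at 2.89, -1.18, -2.2 and 1.91 in KO1 to KO4. INHBA was at -3.01, -3.53 and -2.92 in WT and at 1.64, -3.17, -0.26 and -0.08 in KO1 to KO4. TGFB3 ran from -1.8 to -1.54 in WT and from -2.11 to -0.41 over the clones.

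The genes most like 4 of the members, those spanning at least 2 log2 units, were taken by the smallest root mean square difference over the 7 libraries, each gene set to its own WT mean. For CDH1 they were SYT13 (0.32 log2 units) and SPINK1 (0.38), for EPCAM LOXL1-AS1 (0.15) and ZG16B (0.18), for ESRP2 C2CD4C (0.21) and CXorf57 (0.32), and for SNAI2 SOX9 (0.31) and NUDT11 (0.32). Since this choice used the same 7 libraries, the likeness of levels and order follows from it and is no separate result. SYT13 was at log2 RPKM 0.30, 0.10 and 0.22 in WT and at -6.91, 1.08, -2.94 and -3.24 in KO1 to KO4, the order of CDH1. SOX9 was at 1.06, 1.22 and 1.01 in WT and at 3.8, 2.12, 2.41 and 3.24 in KO1 to KO4, above all WT samples in all clones as SNAI2 was, though with KO2 and KO3 in the reverse order. None of these 8 genes lies on the chromosome of the gene it resembled.

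The label of the line was checked against markers. Of 7 thyroid follicular markers PAX8 had values, at log2 RPKM -2.97, -2.63 and -2.23 in WT and from -5.02 to -1.20 over the clones, and the other 6, thyroglobulin among them, were not analysed here. The 4 simple-epithelium keratins (KRT8, KRT18, KRT19, KRT7) were all measured, at a summed RPKM of 553 to 671 in WT and 277 to 633 in the clones. In KO1, KO2, KO3 and KO4 3, 1, 4 and 3 of the 4 fell, and KRT18 fell in each clone, including KO2. Of 7 leukocyte markers 3 had values, with a summed RPKM of 9.64 to 12.3 in WT and 0.675 to 3.18 in the clones, and PTPRC, the pan-leukocyte marker, was not analysed here. In the WT samples their sum is carried by CD3D, which fell in each clone. In every clone CD14 or ITGAM was higher than CD3D. Of 7 fibroblast markers 3 had values, at a summed RPKM of 51.2 to 55.1 in WT and 20.4 to 70.1 in the clones. PDGFRA fell in each clone, while LUM and COL1A1 rose in KO3 (log2 differences 0.54 and 0.74). LUM fell in KO1 (-1.09) and KO2 (-0.63), and COL1A1 fell in KO1, KO2 and KO4. Of 5 endothelial markers PECAM1 had values, at 0.275 to 0.325 in WT and 0.0503 to 0.720 in the clones. The part of other cell types in the levels of the switch genes was not tested.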

How the data were processed

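Per the labels' protocols, column-purified total RNA, treated with DNase, went into TruSeq RNA libraries (Illumina). The authors deposited log2 RPKM values for 13142 genes in 1 table (7 libraries: 3 WT, 4 KO clones). Build hg38 and the tools STAR 2.5.3a, HTSeq 0.11.2, edgeR and Trim Galore 0.4.1 are named per the submitters' processing notes. The annotation, filter and strand setting are not given in the sources used here, so overlapping genes may share reads. The values were used as given, with no further scaling or pseudocount.

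Whole reads were recovered from these values, since genes without reads share a level that depends on exon length: 11411 genes (86.8%) came out whole within 0.01 reads with the GENCODE 29 exon length and 1728 more with a solved length, 99.98% in all, at a mean prior of 0.25 reads. SNAI2 is among those with a solved length. Genes were placed by GENCODE 29 symbol (12332 of 13142, 93.8%).

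Genes with log2 RPKM above 0 in at least 3 of 7 libraries were tested with limma 3.58.1 in R 4.3.3 (variance trend, Benjamini-Hochberg over 11154 genes, adjusted p under 0.05). The comparisons were KO against WT, each clone against WT with the clone as a group of its own, and late-stop against early-stop clones (stop after or before residue 1500). WT replicates are called biological by the submitters. Whether they came from separate cultures is not stated further, so p-values measure the spread between these samples. Fits were tested on simulated data. Alternatives were other filters, quantile and median scaling, no variance trend, position centring over 5 Mb, the replicate number as a block, leaving out each library and, added after seeing the data, limma voom on the recovered reads. The members and lists were chosen with earlier results of these data known. Genes named beside the members were ASH1L, the first 5 genes with values of each list, list genes called in KO against WT or the same way in each clone, and the 2 genes most like each member that spanned at least 2 log2 units. LTBP2, INHBA and TGFB3 were named as the TGF-beta genes that did not pass the filter. Figures were drawn with matplotlib 3.10.9 under Python 3.11.15.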

Additional observations from a re-analysis of the deposited data

Results flagged for a closer look

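In the groups of 4 clones, 62 genes (the 9 switch genes with values, ASH1L and the list genes that the naming rule gave) were examined for a sample far from the other 3, judged by the gap to the nearest sample over the whole range (Dixon's 95% critical value for 4 samples). Chance flags about 1 group in 20, and 4 genes were flagged. ZEB2 was lowest in KO2, at log2 RPKM -0.43, with a gap of 0.842 of the range. TWIST1 was lowest in KO2, at log2 RPKM -0.77 (0.849), and so was CLDN3, a claudin of tight junctions, at 0.59 (0.870). CTNNA1, alpha-catenin, was lowest in KO3, at log2 RPKM 6.47 (0.851).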

How the results depend on the processing

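KO against WT called 46 genes (41.3% of them higher), and 30 with the filter at log2 RPKM above 1, 114 under quantile normalization (56.1% higher), 1 with position centring, 0 with the replicate number as a block (1206 at an unadjusted p under 0.05), a fit in which KO4, with no WT partner, carries no weight, and 0 to 236 with 1 library left out. The count was 236 with KO2 left out, 87 with KO3 left out, 1 with KO4 left out and 0 when WT1, WT2 or WT3 was. The deviations of same-numbered samples from their group means correlated across genes at 0.06, 0.07 and -0.01, so no pairing was seen. The block changed no call of the 9 genes. KO1 against WT called 4919 genes (43.5% higher, 53.7% under quantile normalization and 53.0% with medians set to 0), 3279 with position centring and 3088 to 5833 with 1 library left out. The ranges were 1743 to 4867 for KO2, 1706 to 4906 for KO3 (2520 with position centring) and 1153 to 3972 for KO4, each lowest without WT2. The late-stop comparison called 0 to 293, with 293 without KO1 and 279 without KO2.

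The differences whose sign turned had not passed. With position centring they were ZEB1 in KO against WT (0.02), ESRP2 in KO2 (-0.11), ALCAM in KO4 (-0.02) and CDH2 in the late-stop comparison (0.09), and with medians set to 0 CDH2 in KO1 (0.01). With 1 library left out, KO against WT ran from -0.70 to 0.03 for EPCAM, -0.35 to 0.17 for VIM and -0.17 to 0.23 for ZEB1. Late-stop minus early-stop ran from -4.48 to 3.35 for CDH1, -1.36 to 0.81 for EPCAM (0.40 without KO4), -1.99 to 0.70 for ESRP2, -0.69 to 0.21 for CDH2, -0.52 to 1.03 for VIM, -0.14 to 0.93 for ZEB2 and -1.28 to 0.17 for SNAI2. The cause was not tested. ZEB2 had too few neighbours for position centring and did not pass the filter at log2 RPKM above 1. Among the 9 genes depth limits CDH1 most, with 5 reads in KO1.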
